A study of Mus musculus with 2 samples.

Results

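The genes described here encode the proteins of the cytosolic ribosome, and the measurement is the binding of Rfx6 near their starts in Min6b1 cells, an insulin-secreting mouse β cell line. The members were the autosomal protein-coding genes of the GENCODE M1 annotation whose symbol is Rpl or Rps followed by a number, with at most a short letter suffix, or is Rplp0, Rplp1, Rplp2 or Rpsa. Genes of the Rps6k kinases and symbols with -ps were left out. This gave 77 genes of the 22367 protein-coding genes outside the mitochondrial genome, on 18 chromosomes, with 46 genes for the large subunit and 31 for the small subunit. Cells were transfected with the plasmid pCMV-Tag2A-3HA-Rfx6, in which the CMV promoter drives 3HA-tagged Rfx6, and harvested after 2 days for chromatin immunoprecipitation with an anti-HA antibody and sequencing (ChIP-seq). The control was the same anti-HA ChIP-seq in Min6b1 cells, labelled without the transgene, although the growth text given for both samples describes the transfection. The binding is therefore that of an overexpressed, tagged protein in 1 cell line. There was 1 library per condition, so no value below has a replicate error, and the expression that would check the identity of the cells was not measured in this experiment.

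Ribosomal proteins are made in matched amounts and assembled with ribosomal RNA, and their genes are active in every growing cell. The proteins of the large subunit surround the site of peptide bond formation and the exit tunnel, and those of the small subunit hold the messenger RNA and the decoding site. β cells use these ribosomes to make insulin, their main secretory product. Rfx6 is a winged-helix factor of the Rfx family, which recognises the X-box, a pair of inverted sites close to each other.

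The list held 23308 peaks. For each, the number of 3HA-Rfx6 ChIP reads and the fold enrichment were given, the latter relative to a local background that MACS estimates with the help of the control. Distances were taken from the summit, which is the base of highest signal in a peak, to the 5′ end of the gene record. The ChIP library had 33949757 reads after duplicates were dropped and the control had 3567375, which is 9.52 times fewer. How this difference in depth affected a single fold enrichment was not tested. Regions that did not pass the authors' cutoff are absent from the list, whose smallest peak held 24 reads, so weaker binding was not detectable at this depth.

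Of the 77 ribosomal protein genes, 18 had a summit within 1 kb of the start, or 23.4% (95% Wilson interval 15.3 to 34.0%), beside 20.1% of all protein-coding genes. Within 10 kb the count was 36 genes, or 46.8% (36.0 to 57.8%), beside 35.7% of all protein-coding genes. The share at the start was thus close to the background, which lay inside the interval. The background of 35.7% within 10 kb lay just below the interval. The members are all autosomal, and over autosomal protein-coding genes the shares were 20.8% within 1 kb and 37.0% within 10 kb. Both of these lay inside the members' intervals. Wilson intervals allow for counting only and treat genes as independent. The remaining 59 of the 77 had no listed summit within 1 kb. The nearest summit was at a median distance of 13.1 kb from the start for the members, 25.6 kb for all protein-coding genes and 9.33 kb for autosomal genes whose start was rich in CpG dinucleotides.

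**Figure D1:**
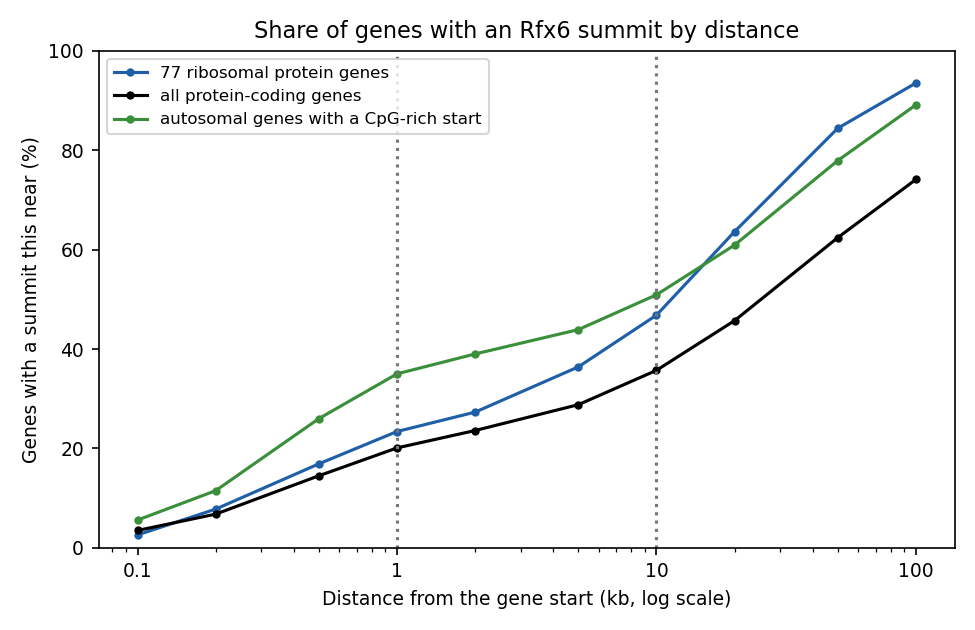
Share of genes (%, vertical axis) that have an Rfx6 summit within a given distance of the start (kb, log scale), for the 77 ribosomal protein genes, all protein-coding genes and autosomal genes with a CpG-rich start. Dotted lines mark 1 and 10 kb, where the ribosomal protein genes stand at 23.4% and 46.8%.

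The start of a gene can be rich in CpG dinucleotides, as most promoters of widely active genes are. Here a start was called CpG-rich when the 250 bases before and 50 after it had at least 55% G and C and a ratio of observed to expected CpG of at least 0.6. By this measure 38 of the 77 members (49.4%) were CpG-rich, beside 37.4% of all protein-coding genes. Among autosomal genes with a CpG-rich start, 35.0% had a summit within 1 kb and 50.9% within 10 kb. Among the 38 CpG-rich members, 9 had a summit within 1 kb (23.7%, 13.0 to 39.2%) and 14 within 10 kb (36.8%, 23.4 to 52.7%), so both shares were below those of CpG-rich autosomal genes as a whole but within counting error of them. The other 39 members also had 9 with a summit within 1 kb (23.1%, 12.6 to 38.3%), where 12.1% of all autosomal genes without a CpG-rich start had one. Within 10 kb, 22 of these 39 had a summit (56.4%, 41.0 to 70.7%), beside 28.4% of all autosomal genes without a CpG-rich start. Both of these backgrounds lay below the members' intervals, the one within 1 kb only just. Among autosomal genes as a whole the CpG-rich class thus had the higher share at both distances. Among the ribosomal protein genes the shares were nearly the same within 1 kb, and within 10 kb the members without a CpG-rich start had the higher share. The difference between these patterns was not tested. The class was set at the 5′ end of the gene record only, and the division was not repeated at other annotated transcript starts. Some members also fell just below the cutoff, such as Rpl35a with 54.3% G and C and a ratio of 1.13.

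The highest peak at a member start was that of Rps19 (ENSMUSG00000040952.9), a small subunit protein whose human counterpart is often mutated in Diamond-Blackfan anaemia. Its summit lay on chromosome 7 at 25669978, 588 bp downstream of the start, in an exon part that is not coding. The peak held 172 reads at a fold enrichment of 24.5, with a score of 708, where the score is 10 times the negative log10 of its p-value, and with an FDR (the expected share of false peaks) of 3.59%. This number of reads was reached by 11.4% of the 23308 peaks and this fold enrichment by 6.08%. Rps19 therefore had the most reads and the highest fold enrichment of the 18. No other protein-coding start lay nearer than 12.4 kb to this summit.

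The peak of Rpl36al, a paralog of the X-linked Rpl36a, held 149 reads at a fold enrichment of 8.94, with its summit 238 bp downstream of the start. That summit was also 313 bp from the start of Mgat2, an enzyme of N-glycan synthesis, which is read from the other strand. Rpl18 had a peak of 119 reads 365 bp upstream of its start, at a fold enrichment of 17.9, the highest after Rps19. Rpl35a, another gene mutated in Diamond-Blackfan anaemia, had 110 reads at a fold enrichment of 10.1, with the summit 256 bp upstream of its start and 21 bp from the start of the neighbouring Iqcg. Rpl35, whose protein sits near the mouth of the exit tunnel, had 107 reads at a fold enrichment of 7.30, with the summit 555 bp into the gene, in an intron. Rpl21 had 103 reads at a fold enrichment of 12.1, 436 bp downstream of its start. In all, 7 of the 18 members held at least 100 reads within 1 kb.

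The next members had between 60 and 79 reads, on either side of the median of all peaks (73 reads). Rpl30, whose protein also takes part in selenocysteine incorporation, had 79 reads at a fold enrichment of 6.59, with the summit 256 bp downstream. Rpl9 had 76 reads, with a summit 211 bp upstream of its start and 157 bp from the start of Lias, a lipoic acid synthase gene on the other strand. At 14.1, the fold enrichment of the Rpl9 peak ranked below those of Rps19 and Rpl18 only. Rpl10a had 71 reads at a fold enrichment of 5.39, 309 bp downstream. Rps15 had 66 reads at a fold enrichment of 9.21, 140 bp downstream in an intron. Rpl29 had 64 reads at a fold enrichment of 5.88, 149 bp downstream, and Rpl37 had 61 reads at 6.36, 166 bp downstream. These 4 summits all lay shortly after the start. Rps10, also mutated in Diamond-Blackfan anaemia, had 60 reads at a fold enrichment of 10.8, and its summit was 48 bp upstream of the start. The remaining peaks were weaker, with 50 reads at a fold enrichment of 7.53 at Rps21, 46 reads at Rpl22 and 43 at Rpl24. Rpl24, mutated in the Belly spot and tail mouse, had the summit closest to a start, 23 bp downstream.

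**Figure D2:**
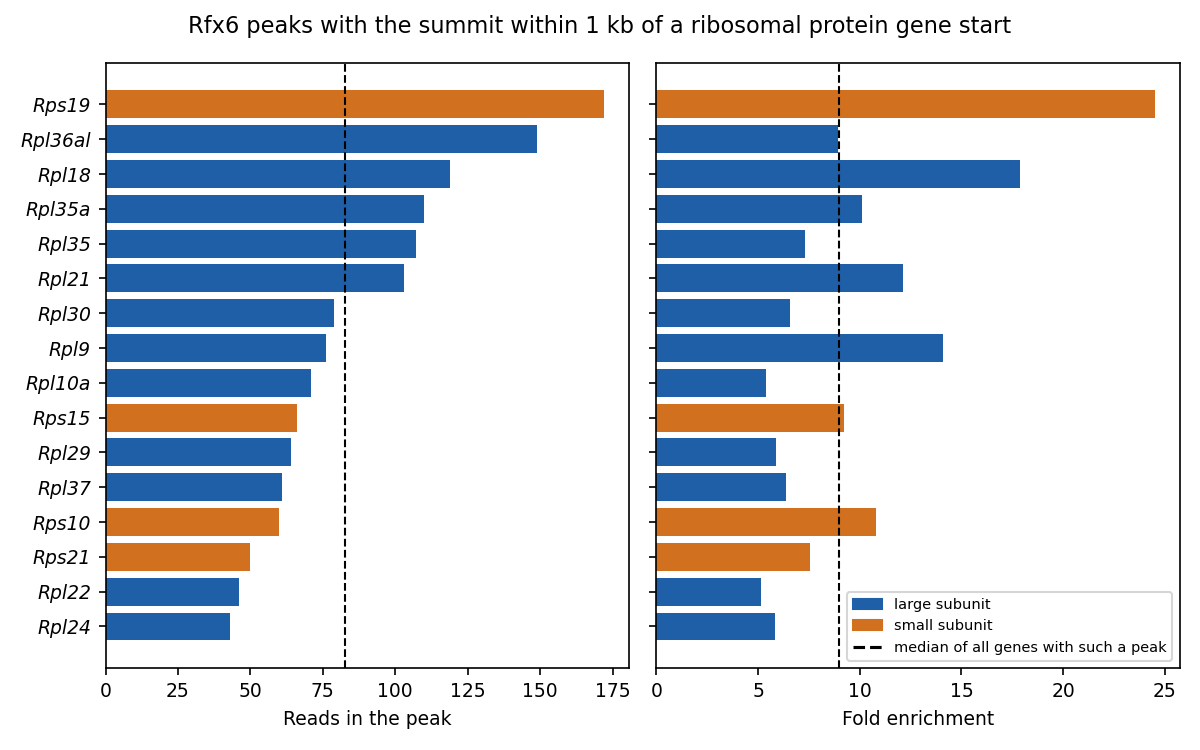
Reads in the peak (left) and fold enrichment (right) for 16 of the 18 ribosomal protein genes with a summit within 1 kb of the start, coloured by subunit. Dashed lines are the medians over all 4498 protein-coding genes with such a peak, 82.5 reads and 8.98-fold; 6 of the 16 genes exceed the first, led by Rps19 with 172 reads.

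As a group the peaks at ribosomal protein starts were of ordinary size. Their median was 73.5 reads and a fold enrichment of 7.88, beside 82.5 reads and 8.98 for the highest peak within 1 kb of any protein-coding gene. Of the 18, 9 held more reads than the median of all peaks and 8 had a fold enrichment over its median of 8.54. Scores ran from 66.8 to 708 and the FDR from 2.03 to 4.75%. The peak with the lowest score of the 18, that of Rpl22, also had the lowest FDR. The summits were downstream of the start in 12 genes and upstream in 6, and 67.1% of all genes with a summit this near also had it downstream. The median distance was 256 bp, beside 310 bp for all such genes. By annotation, 6 summits lay upstream of the gene, 7 in exon parts that are not coding, 3 in introns and 2 in coding exons, among them that of Rpl22. The summit just inside the limit of 1 kb was that of Rps21, 987 bp upstream. Just outside it were those of Rpl7, 1250 bp upstream with 167 reads, and Rplp2, 1254 bp downstream with 58 reads.

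None of the 18 peaks carried a strict X-box, a pattern of both inverted sites with 0 to 3 bases between them, searched on both strands of the 200 bp around the summit. The share was 0 of 18 (upper end of the Wilson interval 17.6%), beside 5.78% of the 4151 peaks within 1 kb of any protein-coding start and 6.42% of all peaks. With so few peaks, a share like that of the other promoters could not be told from 0. A relaxed X-box, which fixes fewer letters and allows 1 to 3 bases between the sites, was present in 8 of the 18, or 44.4% (24.6 to 66.3%), beside 39.1% at all such promoters. In windows 1 kb to the right of the same 18 summits, 7 held the relaxed pattern, or 38.9% (20.3 to 61.4%) beside 44.4% at the summits. Over the 4151 peaks at any protein-coding start, 23.3% of such windows held it, beside 39.1% at the summits. The 18 peaks are too few to show whether they differ from this. The median G and C content at the summits was 65.2%, close to the 65.5% of all peaks at protein-coding starts.

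The window of Rps10 is shown as an example of a summit close to a start with neither pattern, on the strand of the gene and outside untranslated sequence. It covers chr17:27773575-27773721 (NCBIM37/mm9, minus strand) and ends at the base before the gene start, and no base is in capitals.
Rps10: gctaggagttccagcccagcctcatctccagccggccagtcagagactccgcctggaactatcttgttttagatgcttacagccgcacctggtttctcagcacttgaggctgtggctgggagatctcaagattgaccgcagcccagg

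The strongest peaks near ribosomal protein genes lay farther away. In all, 56 peaks had a summit within 10 kb of a member start, and none was shared by a pair of members. The 38 of them beyond 1 kb held from 30 to 374 reads, with a median of 80. The peak of 374 reads was 6188 bp upstream of Rpl18, on chromosome 7 with the summit at 52964639. It had a fold enrichment of 24.9, and 1.24% of all peaks reached its number of reads. Its summit was 4.18 kb from the start of Dbp, a circadian transcription factor, and thus nearer to that gene than to Rpl18. Rpl18 had further peaks of 209 reads 7820 bp downstream of its start and of 57 reads 2971 bp downstream, the latter within the gene. Their summits were nearer to other starts, 2.06 kb from that of Fam83e and 0.426 kb from that of Sphk2. With the peak within 1 kb, Rpl18 had 4 summits within 10 kb in all. Rpl23a had no summit within 1 kb but had peaks of 259 reads 5867 bp downstream, at the highest fold enrichment of the 56 (25.2), and of 146 reads 5681 bp upstream. These lay 1.01 kb from the start of Tlcd1 and 0.835 kb from the start of Rab34. The peak of 167 reads upstream of Rpl7 was 0.138 kb from the start of Rdh10, a retinol dehydrogenase. Among members that also had a summit within 1 kb, Rpl35 had 113 reads 2877 bp upstream and 92 reads 1944 bp downstream, and Rpl24 had 114 reads 8240 bp downstream. Rpl22 had 91 reads 6942 bp upstream. For 13 of the 18 the highest peak within 10 kb was the one within 1 kb of the start, and Rpl18, Rpl35, Rpl24 and Rpl22 were among those with a higher peak farther out. Rps15 had 44 reads 8986 bp upstream, 43 reads 2572 bp downstream and 49 reads 5220 bp downstream, all fewer than the 66 at its start.

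**Figure D3:**
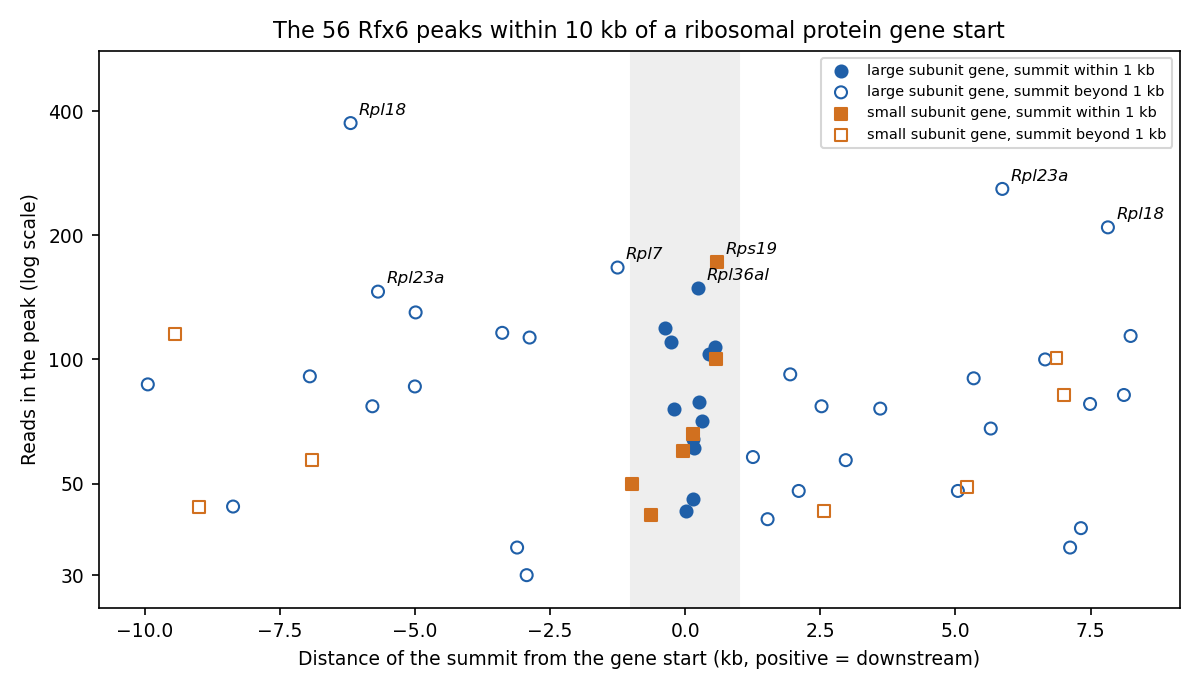
Reads (log scale) against the distance of the summit from the gene start (kb) for the 56 peaks within 10 kb of a ribosomal protein gene, with filled symbols inside the shaded 1 kb window. Peaks of at least 140 reads are named; the highest, with 374 reads, lies 6188 bp upstream of Rpl18.

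Strict X-boxes were found at 2 of the 56 summits, or 3.57% (0.985 to 12.1%), beside 6.42% of all peaks. Both were beyond 1 kb. They are shown because they are the clearest matches to the site of the Rfx family near these genes. The first is the peak upstream of Rpl18 (chr7:52964539-52964738, NCBIM37/mm9, plus strand), where the X-box in capitals reads GTTGCCTTGGCAAC and lies 36 bp from the summit. The second is a peak of 116 reads and a fold enrichment of 14.1, 3383 bp upstream of Rpl36 (chr17:56749335-56749534, plus strand), whose X-box, GTTACCACGGCAAC, contained the summit. That summit was 0.241 kb from the start of 2410015M20Rik.
Rpl18, 6188 bp upstream: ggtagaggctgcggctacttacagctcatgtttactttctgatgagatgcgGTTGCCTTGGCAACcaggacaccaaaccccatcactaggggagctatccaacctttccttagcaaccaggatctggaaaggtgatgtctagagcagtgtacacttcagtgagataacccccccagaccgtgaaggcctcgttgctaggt
Rpl36, 3383 bp upstream: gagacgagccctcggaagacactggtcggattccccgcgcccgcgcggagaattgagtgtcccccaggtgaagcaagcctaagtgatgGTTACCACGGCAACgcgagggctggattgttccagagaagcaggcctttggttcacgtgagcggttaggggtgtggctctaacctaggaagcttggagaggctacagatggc

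The converse was seen at Rps3, whose protein lines the entry of the messenger RNA into the small subunit. It was the only member with a strict X-box in its own promoter, the 250 bases before and 50 after the start, where 1.31% of all protein-coding promoters had one. The nearest listed summit was 26.7 kb from its start. The part of the promoter around the X-box, up to the base before the start, is shown on the strand of the gene (chr7:106632249-106632412, minus strand), with the X-box, GTTGCTAGGTTAC, in capitals, 53 bp before the start.
Rps3: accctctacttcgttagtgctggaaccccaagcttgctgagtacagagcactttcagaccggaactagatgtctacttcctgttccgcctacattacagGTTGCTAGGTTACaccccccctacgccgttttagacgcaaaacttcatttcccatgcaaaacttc

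Many peaks beyond 1 kb were nearer to other genes. Of the 38, 23 were nearer to the start of another protein-coding gene and 12 lay within 1 kb of one. The same shares were not counted for peaks 1 to 10 kb from other genes, so these counts have no background. Close neighbours were common, and 41 of the 77 (53.2%) had another protein-coding start within 10 kb, beside 29.3% of all protein-coding genes. Among the 36 members without such a neighbour, 11 had a summit within 10 kb (30.6%), beside 32.1% of all genes without one. Among the 41 with a neighbour it was 25 (61.0%), beside 44.3%. Within 1 kb the shares were 19.4% of the 36 and 26.8% of the 41, beside 19.0 and 22.8% of all genes of the same kind. Within 10 kb the members' share was thus above the background where another gene began nearby and close to it where none did. This division was chosen after the counts were known, and the part of the neighbours in the result was not tested.

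The counts differed between the subunits. Of the 46 large subunit genes, 12 had a summit within 1 kb (26.1%, 15.6 to 40.3%) and 27 within 10 kb (58.7%, 44.3 to 71.7%). Of the 31 small subunit genes, 6 had one within 1 kb (19.4%, 9.19 to 36.3%) and 9 within 10 kb (29.0%, 16.1 to 46.6%). Over all protein-coding genes the shares were 20.1% within 1 kb and 35.7% within 10 kb. The former lay inside both intervals. The latter lay below the interval of the large subunit genes and inside that of the small subunit genes. The intervals of the subunits overlap at both distances, and the difference was not tested. The subunits were not divided by neighbouring starts, so the part of the neighbours in this difference was not tested either. The large subunit genes with a summit only between 1 and 10 kb were Rpl7, Rpl31, Rpl12, Rplp0, Rpl11, Rpl32, Rpl28, Rpl13a, Rplp2, Rpl13, Rpl23a, Rpl27, Rpl38, Rpl15 and Rpl36. The small subunit genes were Rps25, Rps24 and Rps28, whose peaks held 115, 101 and 82 reads at 9.43, 6.87 and 7.00 kb.

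Among the members of the stalk, which recruits the translation factors to the ribosome, Rplp2 had 4 summits within 10 kb, of 130, 87, 82 and 58 reads. That of 58 reads was in an intron of the gene, and that of 87 reads was just inside the limit, 9939 bp upstream. Rplp0 had the weakest peak of the 56, with 30 reads 2931 bp upstream. Rplp1 had none, its nearest summit being 10.2 kb away with 128 reads, just outside the limit. The pair that carries the small ribosomal RNA of the large subunit and binds Mdm2 had little nearby. Rpl11 had 39 reads in an intron 7.32 kb from its start, and the nearest summit of Rpl5 was 128 kb away. Rpl31 had 86 reads 5.00 kb upstream and Rpl32 had 100 reads 6.66 kb and 77 reads 2.52 kb downstream. Rpl12 had 76 reads 3.61 kb and 48 reads 5.04 kb downstream, and Rpl13 had 48 reads 2.10 kb and 78 reads 7.49 kb downstream. None of the peaks of Rpl31, Rpl32, Rpl12 and Rpl13 held more than 100 reads. Rpl27 had 90 reads 5.34 kb downstream, 0.772 kb from the start of Ifi35, and Rpl15 had 41 reads in an intron 1.52 kb from its start. Rpl28 had 35 reads 3.11 kb upstream, 0.110 kb from the start of 2210411K11Rik. Rpl36 had, beside the peak with the X-box, 44 reads 8.36 kb upstream and 68 reads 5.65 kb downstream. Several of these summits were thus closer to a neighbour than to the ribosomal protein gene. Rpl13a had 77 reads 5.79 kb upstream, and Rpl38, known for its role in body patterning, had 35 reads 7.12 kb downstream and 0.214 kb from the start of Ttyh2.

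The remaining 41 members had no summit within 10 kb. They include Rps6, the target of the S6 kinases, with its nearest summit 17.1 kb away, Rpl3, which reaches toward the peptidyl transferase centre, at 27.9 kb, Rpsa at 17.3 kb and the ubiquitin fusion gene Rps27a at 60.4 kb. The others included, of the large subunit, Rpl37a, Rpl7a, Rpl34, Rpl6, Rpl27a, Rpl4, Rpl14, Rpl26, Rpl23, Rpl19, Rpl10l, Rpl8, Rpl39l, Rpl3l and Rpl17. Of the small subunit they included Rps3a, Rps27, Rps20, Rps9, Rps16, Rps13, Rps15a, Rps27l, Rps12, Rps26, Rps7, Rps29, Rps23, Rps2, Rps18 and Rps14. For the 41 genes the nearest summit was between 10.2 and 456 kb from the start, with a median of 26.7 kb, and 12 of them had none within 50 kb. The farthest was that of Rpl10l, a paralog expressed in the testis, and of the 5 paralogs with the suffix l only Rpl36al had a summit within 10 kb.

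Ribosomal protein genes have many processed copies in the genome, to which short reads can map as well as to the gene. Over the 500 bases on each side of a member start, the share of 50-base stretches with an exact copy elsewhere had a median of 0.420% and reached 35.8% at Rps29. It exceeded 10% in 8 genes, of which Rpl24 (23.0%) was the only one with a summit within 1 kb. The median was 0% in the 18 genes with such a summit and 1.58% in the 59 without. Most stretches at these starts thus had no exact copy, and how the authors treated reads with several matches is not given in the sources used here.

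Other features of the promoters were compared by count. The letters CCGGAAG, a core bound by ETS factors, were found on either strand in 24 of the 77 promoters (31.2%, 21.9 to 42.2%), beside 10.8% of all protein-coding promoters. Among members with a summit within 1 kb it was 3 of 18, and among those without 21 of 59. The YY1 core AAGATGGC was found in 5 promoters (6.49%, beside 3.30%), those of Rps27, Rpl18, Rps15a, Rpl23a and Rpl35a. GTTGCC, 1 of the sites that make up an X-box and so overlapping it, was found in 7 (9.09%, beside 12.0%) and the GC box GGGCGG in 35 (45.5%, beside 43.4%). Of the 77 genes, 28 held an annotated snoRNA on their strand (36.4%, beside 1.20% of all protein-coding genes), among them 4 of the 18 with a summit within 1 kb and 24 of the 59 without. Another protein-coding gene began on the other strand within 1 kb in 13 members (16.9%, 10.1 to 26.8%, beside 10.8% of all protein-coding genes), of which 3 had a summit within 1 kb, Rpl9, Rpl36al and Rpl35a. Transcripts of ribosomal protein genes usually begin with a C and a run of pyrimidines, here searched as a C and 4 pyrimidines. At the annotated 5′ end of the gene record this was so in 3 members (3.90%, 1.33 to 10.8%, beside 2.11% of all genes), and at the start of any annotated protein-coding transcript in 15 (19.5%, beside 4.26% of all genes).

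Related gene groups were compared by the same counts. The shares over all protein-coding genes were 20.1% within 1 kb and 35.7% within 10 kb. Of the 76 genes for mitochondrial ribosomal proteins, 24 had a summit within 1 kb (31.6%, 22.2 to 42.7%) and 37 within 10 kb (48.7%), led by Mrpl47 with 460 reads, Mrps18c with 403 and Mrps2 with 188. Of 45 genes for ribosome biogenesis, 10 had a summit within 1 kb (22.2%, 12.5 to 36.3%) and 18 within 10 kb (40.0%), led by Nip7 with 356 reads, Bop1 with 204 and Nop14 with 178. Of 32 translation factor genes, 8 had one within 1 kb (25.0%, 13.3 to 42.1%) and 12 within 10 kb (37.5%), led by Eif3c with 155 reads, Eif2s1 with 140 and Eif4a2 with 121. Of 41 proteasome subunit genes, 11 had one within 1 kb (26.8%, 15.7 to 41.9%) and 13 within 10 kb (31.7%), led by Psmc2 with 191 reads and followed by Psma7 and Psmb9 with 110 each. The median of the highest peak within 1 kb was 68.0 reads for the mitochondrial list, 135 for biogenesis, 81.0 for the translation factors and 65.0 for the proteasome, beside 73.5 for the cytosolic ribosomal protein genes. The highest peak at a cytosolic ribosomal protein start, that of Rps19, thus held fewer reads than the highest of the mitochondrial, biogenesis and proteasome lists. At both distances the share of all protein-coding genes lay just below the mitochondrial interval (37.8 to 59.7% within 10 kb). It lay inside the intervals of the biogenesis, translation factor and proteasome lists. All these intervals overlap that of the cytosolic ribosomal protein genes at 1 kb, and the differences were not tested.

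**Figure D4:**
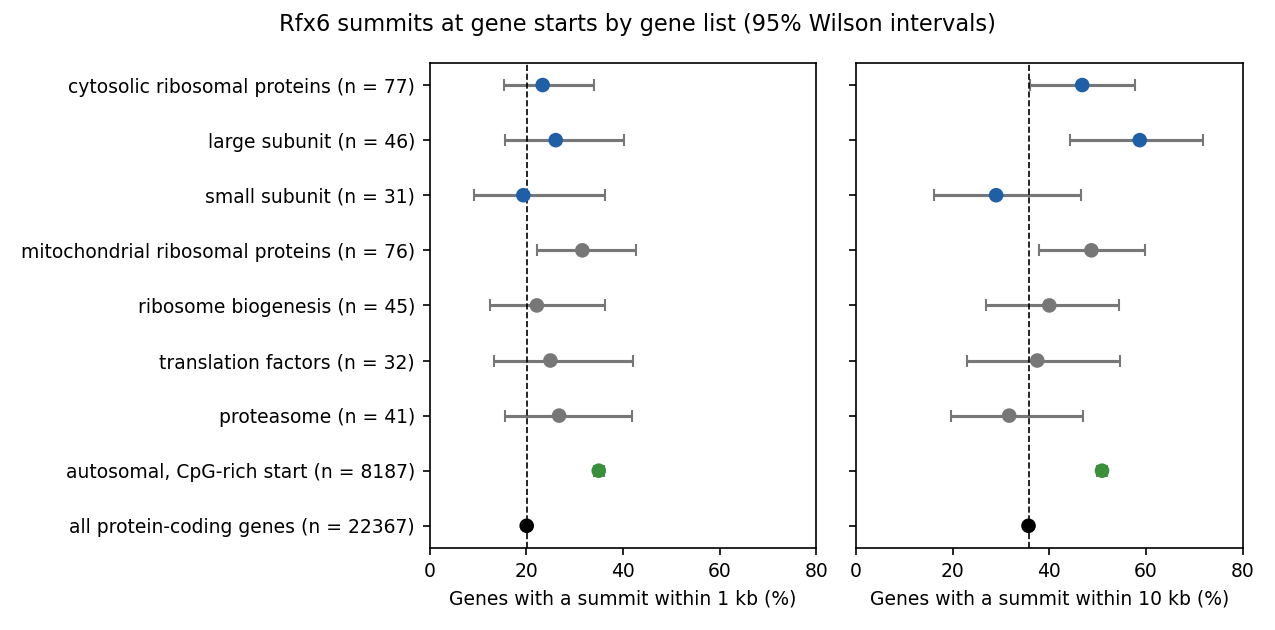
Share of genes with an Rfx6 summit within 1 kb (left) and 10 kb (right) of the start for each gene list, with bars for the 95% Wilson interval. The dashed line is the share of all protein-coding genes, 20.1 and 35.7%; at 10 kb the large subunit genes stand at 58.7% and the small subunit genes at 29.0%.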

How the data were processed

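The authors sequenced 1 anti-HA ChIP library of 3HA-Rfx6 transfected cells (49443917 reads of 50 bases) and 1 control library (16911298 reads), and the submitters' processing notes name CASAVA 1.8.2, Bowtie, MACS 1.4.2 and mm9. Per the file headers, MACS kept 1 read per position, used a p-value cutoff of 1e-05 estimated a fragment size of 234 bp and scaled the smaller control to the depth of the ChIP. Peaks were deposited with a tag count, the raw number of ChIP reads. Also deposited were the fold enrichment, a ratio to the local background, a score (10 times the negative log10 of the p-value) and the FDR in percent, which MACS obtains by exchanging ChIP and control. The control's reads entered only through these values and the calling of the peaks.

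Summits (peak start plus summit offset minus 1) were compared with the 5′ ends of GENCODE M1 gene records on NCBIM37, the mm9 assembly, leaving out the mitochondrial genome. Shares have 95% Wilson intervals. No test was run, because genes of 1 library are not replicates. The members and lists were chosen with earlier results of these data known. Genes were named by rule: members with a summit within 1 kb by reads (the first 15 with reads, fold enrichment and distance), those with a summit only within 10 kb by reads and distance, those with none by name, and the 3 genes with the most reads of each related list. A sequence was to be shown for the near summits with the most reads, the highest fold enrichment or a strict X-box. The first windows lay in untranslated exons, so those shown were chosen afterwards, as were the divisions by subunit and by neighbouring gene. Some members are counted but not reported here by name. Gene assignment was tested on simulated data, with 200 of 200 planted genes found, as was the X-box search, with 400 of 400 found. The tools were scipy 1.17.1, matplotlib 3.10.9, pandas 2.3.3 and numpy 2.4.6 under Python 3.11.15. Alternatives covered the start, peak threshold, distance, background, member rule and X-box.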

Additional observations from a re-analysis of the deposited data

How the results depend on the processing

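No paired analysis was possible because each condition had only 1 library, which also left no replicate to drop. The count of 18 members with a summit within 1 kb became 20 with the starts of all protein-coding transcripts, which added Rplp2 and Rpl15. It was 9 with the 50% of peaks that had the highest scores, 6 with a fold enrichment of at least 10 and 0 with an FDR of at most 1%, where 1 of all protein-coding genes was left. The background moved alike, to 11.7, 8.65 and 0.00447%. The count of 36 within 10 kb was 22, 15 and 0 under the same settings, with a background of 21.6, 17.2 and 0.0179%. A higher score did not mean a lower FDR. The FDR was 2.03% at the Rpl22 start (score 66.8) and 8.45% at the peak 6188 bp upstream of Rpl18 (score 1950). Among the 56 peaks, the FDR thus did not rank peaks as the score did. With CpG-rich starts only, the counts were 9 and 14 of 38, and with no other start within 10 kb, a setting added after seeing the data, 7 and 11 of 36. The median of 73.5 reads at member starts was 106 with a fold enrichment of at least 10 and 107 with the higher scores, which left 6 and 9 members, and the median fold enrichment of 7.88 was then 10.1 with the higher scores. The share of 0% with a strict X-box was 44.4% with the relaxed pattern. The counts stayed within 1.5 times those given with distances of 500 bp, 2 kb and 5 kb and with the wider member rule. Taking any base of the peak in place of the summit also left them within that range. The autosomal background cannot change the member counts, and its shares were 20.8% within 1 kb and 37.0% within 10 kb.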

Other observations

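Genes outside the symbol rule were looked at apart. Of the 4 X-linked ribosomal protein genes, 0 had a summit within 1 kb. A share over X-linked genes alone was not counted, so these 4 genes have no background of their own kind. Restricting the background to autosomal genes raised it from 20.1 to 20.8% within 1 kb and from 35.7 to 37.0% within 10 kb. Genes outside the autosomes thus had a listed summit less often. Rpl10 had a peak of 38 reads 1.08 kb upstream of its start and Rps4x had 68 reads 4.29 kb downstream, while Rpl39 and Rpl36a had none within 10 kb. Of the 5 further ribosomal genes that the rule misses, the paralog Rpl22l1 had 95 reads at a fold enrichment of 11.0, 0.350 kb downstream of its start. Fau had 100 reads 3.94 kb and 68 reads 9.74 kb downstream, Rpl7l1 had 39 reads 9.60 kb downstream, and Gnb2l1 had none within 10 kb.

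The loci with -ps in the symbol, which the rule leaves out, were also counted. Of 163 annotated ribosomal protein loci with -ps in the symbol, 0 had a listed summit within 1 kb of their 5′ end and 22 (13.5%) had one within 10 kb. How many of their reads could be placed uniquely was not measured. The same shares over processed copies of other genes were not counted, so these values have no background of their own kind.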
